A study of Mus musculus with 12 samples.

Results

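Silicate nanoparticles of 100 nm were set against phosphate-buffered saline (PBS) in mouse retina on 3 of the 12 Agilent 2-colour arrays of the series, those titled with this particle and size. In the silicate 100 nm group, male C57BL/6 mice aged 5 weeks had the particles injected into the vitreous, the gel that fills the eye behind the lens, of the right eye. In the PBS group the injection held buffer alone. Retinas were taken 7 days later, with 12 mice per group and 4 retinas pooled in a tube, so the 3 tubes of a group are 3 separate pools. Each array carried RNA of a silicate 100 nm tube labelled with Cy5 and RNA of a PBS tube labelled with Cy3. The other 9 arrays held silicate 20 nm, gold 100 nm or gold 20 nm tubes against PBS, 3 arrays each, and all groups, PBS included, had the same injury of an injection. The sample annotation gives the particle size in nM, and the growth protocol gives it as a diameter in nm, the reading used here. It also gives the PBS mice of these 3 arrays as C57BL/10, C57BL/11 and C57BL/12 and those of the silicate 20 nm arrays as C57BL/7, C57BL/8 and C57BL/9, while the gold arrays and the series' design read C57BL/6. The number thus goes up by 1 from array to array over the silicate samples, and whether it names a real strain was not tested. The particle dose is not given in the sources used here.

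Silica particles that reach tissue are taken up by phagocytes, and in such cells they are known to damage lysosomes and to set off the inflammasome, the complex that matures interleukin 1 beta. In the retina the resident phagocytes are microglia, and neutrophils and monocytes enter from blood when the eye is inflamed. Muller glia, the radial support cells of the retina, answer injury with a programme called gliosis, marked by the filament protein gene Gfap. A dissected retina can also carry lens, pigment epithelium, ciliary body or muscle, whose genes are very strongly expressed and show up in small amounts. The arrays measured whole retina, so fewer cells of a type and less RNA per cell cannot be told apart.

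The value for each gene is the log2 ratio of silicate 100 nm over PBS on an array, positive where the silicate tube was higher, after background correction and loess. Below, a gene that passed had an adjusted p under 0.05 in limma over all genes and 12 arrays without the slide as a block, and the p with that block is given where it changes the call of a named gene. A fixed block takes the differences between slides out of the error. Its p thus does not measure the spread between the 3 pools. A total of 23203 genes were tested, 15561 of them with a symbol. Levels are normalized log2 intensities of a single channel. Of the non-control spots, 29389 to 29981 per array were well above background in the silicate channel and 29879 to 30626 in the PBS channel. The rod transducin gene Gnat1 had levels of 17.8, 17.9 and 17.1 in the silicate 100 nm tubes, against 17.1, 17.5 and 18.1 in the PBS tubes, in the order of arrays 1, 2 and 3, which is kept below. Glul, the glutamine synthetase gene of Muller glia, had levels of 15.3, 15.6 and 15.4 in silicate 100 nm and 15, 15.6 and 15.4 in PBS. The defining genes of retina were thus bright in all 6 tubes.

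The 3 arrays did not show the same response. On array 1, 233 genes were above PBS by more than 2-fold (1% of those measured) and 1286 were below it by as much (5.54%). On array 2 the numbers were 131 above (0.565%) and 4 below (0.0172%), and on array 3 they were 1856 above (8%) and 99 below (0.427%). The SD of the log2 ratio over genes was 0.619, 0.21 and 0.693 on arrays 1, 2 and 3. Most genes were thus within 2-fold of PBS on every array, and the fewest were past it on array 2. Across genes, which are not independent replicates, the log2 ratios of arrays 1 and 3 correlated at -0.634, those of arrays 1 and 2 at 0.0537 and those of arrays 2 and 3 at 0.275. In all, 1058 genes were more than 2-fold below PBS on array 1 and more than 2-fold above it on array 3, which is 57% of the genes above on array 3, and 4 genes did the opposite. The dyes are stated for every array, so the direction of the ratio was kept. A count of 33 genes was above 2-fold on all 3 arrays and 0 genes were below by as much on all 3.

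**Figure D1:**
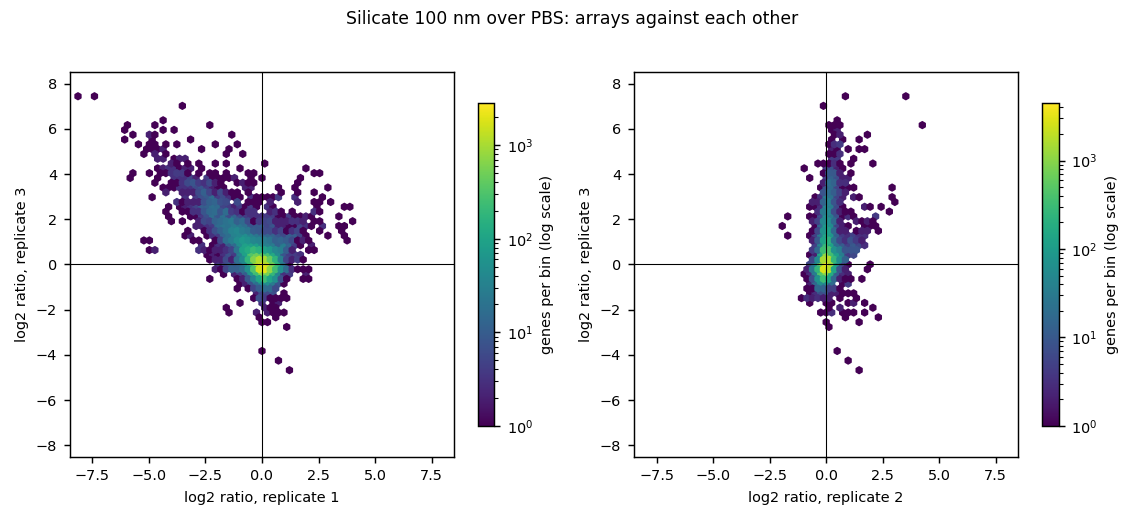
Log2 ratios of silicate 100 nm over PBS on 2 pairs of arrays, array 1 against array 3 at the left and array 2 against array 3 at the right, as genes per hexagonal bin on a log colour scale. At the left the genes run along a falling diagonal (correlation -0.634); at the right they stand in a narrow upright band, with few genes far from 0 on array 2.

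The genes that differed most between the arrays were genes of neutrophils and macrophages. They were high in the PBS tube of array 1, low in the PBS tube of array 2, and high in the silicate 100 nm tube of array 3. S100a8 and S100a9 encode the 2 chains of calprotectin, a calcium-binding protein that makes up much of the neutrophil cytosol. S100a8 had levels of 7.6, 10.1 and 14.6 in silicate 100 nm, against 15.7, 6.48 and 7.13 in PBS, and log2 ratios of -8.07, 3.59 and 7.42. S100a9 had levels of 10.9, 11.8 and 16 in silicate 100 nm, against 16.9, 7.56 and 9.89 in PBS, and log2 ratios of -6.04, 4.19 and 6.09. Both genes were thus above PBS on arrays 2 and 3 and below it on array 1, and the silicate and PBS ranges overlapped. Their mean log2 ratios were 0.98 ± 8.07 (SD, n = 3) for S100a8 and 1.41 ± 6.52 (SD, n = 3) for S100a9, and neither passed (limma adjusted p of 0.989 and 0.949 over all genes).

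S100a8 and S100a9 both lie on chromosome 3 and are read from opposite strands. The 250 bases before the start of each gene are printed because the pair had the same order of ratios over the arrays, from RefSeq on GRCm38.p6, written 5′ to 3′ on the strand of the gene. The letters searched on both strands were TTGCNNAA, a core of the sites of C/EBP factors, which act in myeloid cells. Capitals mark matches, with 1 in S100a9, which starts 236 bases before the gene start, and none in S100a8 in this window. The same letters occur in 9.55% of 27025 mouse promoter windows of that length. The windows are chr3:90668821-90669070 on the plus strand for S100a8 and chr3:90695722-90695971 on the minus strand for S100a9.
S100a8: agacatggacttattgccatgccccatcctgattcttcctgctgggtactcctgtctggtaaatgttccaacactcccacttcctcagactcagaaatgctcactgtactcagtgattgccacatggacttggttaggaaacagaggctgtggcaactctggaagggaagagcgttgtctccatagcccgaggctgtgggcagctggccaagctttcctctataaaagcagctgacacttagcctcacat
S100a9: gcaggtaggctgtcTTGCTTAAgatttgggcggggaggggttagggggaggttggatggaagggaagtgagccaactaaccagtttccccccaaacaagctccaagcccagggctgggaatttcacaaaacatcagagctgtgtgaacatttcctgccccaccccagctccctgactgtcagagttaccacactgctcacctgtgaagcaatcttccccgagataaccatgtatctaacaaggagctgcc

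The other 8 genes with the largest spread had the same order of arrays. The C-type lectin gene Clec4d of myeloid cells had log2 ratios of -7.32, 0.92 and 7.52, and the clotting factor gene F13a1, which macrophages express, had -6.03, 0.53 and 5.87. Il1b, the gene of interleukin 1 beta, had log2 ratios of -5.6, 1.87 and 5.79, with levels of 8.39, 8.14 and 13.2 in silicate 100 nm and 14, 6.26 and 7.43 in PBS. The chemokine gene Ccl4 had log2 ratios of -6.08, 0.30 and 5.43. Each was lowest on array 1 and highest on array 3, and each of the 4 was above 0 on array 2. Lyz1, a lysozyme gene, had log2 ratios of -4.47, 0.51 and 6.42, Ms4a6d, a membrane protein gene of macrophages, -4.69, 0.25 and 6.16, the platelet factor gene Pf4 -5.05, 0.29 and 5.77 and the acute-phase gene Saa1 -5.05, 0.70 and 5.7. The SDs of all 10 genes over the 3 arrays ran from 5.38 for Saa1 to 8.07 for S100a8, against a median SD of 0.194 over all genes tested.

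**Figure D2:**
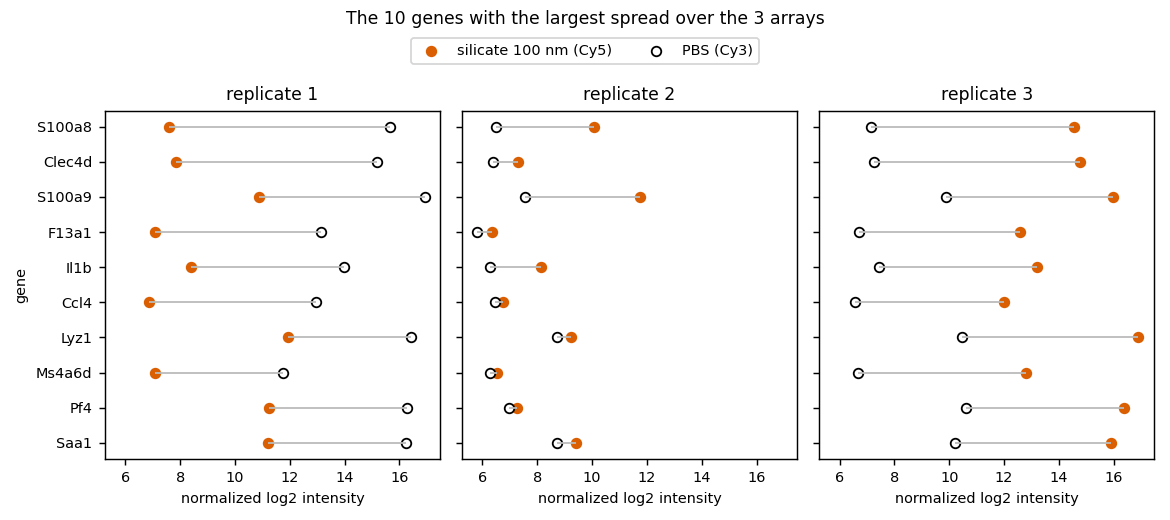
Normalized log2 intensity of the 10 genes with the largest spread, in the silicate 100 nm channel (filled) and the PBS channel (open), for each array. The PBS point lies to the right on array 1 for all 10 genes and the silicate 100 nm point lies to the right on arrays 2 and 3.

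Of 13 neutrophil genes tested, none passed, 10 were more than 2-fold below PBS on array 1 and 10 more than 2-fold above it on array 3, with S100a8 and S100a9 above it on array 2. The list median was -3.54, 0.41 and 2.51. The lactoferrin gene Ltf had log2 ratios of -3.54, 0.52 and 2.51, the chemokine receptor gene Cxcr2 of neutrophils -2.96, 0.054 and 2.65 and Retnlg -4.11, 0.41 and 3.5. The granule protease genes Mpo and Elane of neutrophil precursors stayed near 0, with -0.0086, 0.0044 and 0.18 for Mpo and -0.11, 0.047 and 0.070 for Elane. Ly6g, Ngp, Mmp8 and Cd177 were not analysed here.

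Of 24 macrophage and microglia genes, none passed, 20 were more than 2-fold below PBS on array 1, 0 past 2-fold on array 2 and 21 more than 2-fold above on array 3. Their median log2 ratios were -2.46, 0.23 and 3.4, and their median levels were 10.4, 9.24 and 14.1 in silicate 100 nm, against 13, 9.02 and 10.5 in PBS. The largest SDs in the list, 5.34 and 5.17, were those of Ms4a7 and Adgre1. Ms4a7, a membrane protein gene of macrophages, had log2 ratios of -3.43, -0.055 and 7.03, the macrophage receptor gene Adgre1 -4.37, 0.14 and 5.94 and the lysosomal protease gene Ctss -3.04, 0.83 and 5.51. Genes of resting microglia had SDs of 0.249 for P2ry12 to 1.46 for Tmem119. P2ry12, the receptor gene that guides their processes, had 0.26, -0.039 and 0.46, Siglech 0.60, 0.74 and 0.24, Tmem119 -1.53, 0.17 and 1.37 and the fractalkine receptor gene Cx3cr1 -1.01, 0.71 and 1.75. Siglech passed with the slide as a fixed block (adjusted p = 0.0432, against 0.188 without it). P2ry12 and Siglech stayed within 2-fold of PBS on all 3 arrays, while Tmem119 and Cx3cr1 were below PBS on array 1 and above it on array 3. Itgam, at its brightest probe, stayed near 0 with 0.083, 0.23 and 0.079, while 1 of its further probes read -3.0, 0.39 and 2.45, so its probes disagree.

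Chemokine genes had a median of -1.43, 0.31 and 3.47 over 16 genes, of which 10 were more than 2-fold below PBS on array 1, 2 were more than 2-fold above on array 2 and 14 on array 3. None passed. Ccl2, which draws monocytes, had log2 ratios of -3.23, 0.98 and 4.09, and Cxcl1, which draws neutrophils, had -3.54, 1.15 and 3.46. Ccl12 had -0.044, 1.15 and 2.14, so that Ccl12 and Cxcl1 were the 2 genes of the list above 2-fold on array 2. Of the interferon-induced chemokine genes, the values were 0.44, 0.78 and 2.25 for Cxcl9 and -1.18, 0.55 and 5.28 for Cxcl10. Cxcl9, above PBS on all 3 arrays, passed with the slide as a fixed block (adjusted p = 0.0387, against 0.133 without it). Cx3cl1, the neuronal ligand of Cx3cr1, had 0.46, 0.010 and -0.0054.

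Among 17 inflammasome and cytokine genes the median was -2.29, 0.10 and 2.16 and none passed. The protease gene Casp1 of the inflammasome had log2 ratios of -3.13, 0.13 and 4.21, its adaptor gene Pycard -2.29, -0.013 and 2.59 and the pore-forming gene Gsdmd -2.54, 0.16 and 3.16. The sensor gene Nlrp3 had -0.58, 0.0090 and 0.33. On array 2, Il1b was the 1 gene of this list above 2-fold. Il6, Tnf, Il1a, Il1rn and Il10 were not analysed here.

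Complement, antigen presentation and interferon genes showed the same order of arrays. Of 17 complement genes, 10 were more than 2-fold below PBS on array 1 and 14 more than 2-fold above on array 3 (median -1.55, 0.25 and 2.91). C3, the central component, had log2 ratios of -3.76, 0.65 and 5.31, while C4b had 0.098, 0.54 and 1.17 and C2 had 0.50, 0.32 and 2.32, both above 0 on all 3 arrays. The medians were -1.98, 0.15 and 3.01 for 14 genes of MHC class II presentation, -1.89, 0.082 and 2.7 for 17 of MHC class I presentation and -1.49, 0.10 and 1.73 for 24 interferon response genes. H2-Aa, a class II chain gene, had -2.19, 0.23 and 4.01, B2m, the light chain gene of class I, -2.37, 0.17 and 3.83, and the transcription factor gene Irf7 -1.59, 0.72 and 1.31. No member of these 4 lists passed. Lysosome and phagocytosis genes had a median of -1.34, 0.014 and 1.85 over 22 genes, with -2.22, -0.28 and 2.44 for the protease gene Ctsd and -3.94, 0.10 and 6.04 for Marco, a scavenger receptor gene of macrophages that binds silica, and none passed. For lymphocytes, 6 of 17 listed genes were tested, with a median of -0.013, 0.10 and 0.31 and 0.0074, 0.066 and 0.062 for Cd3e of T cells, and none passed.

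**Figure D3:**
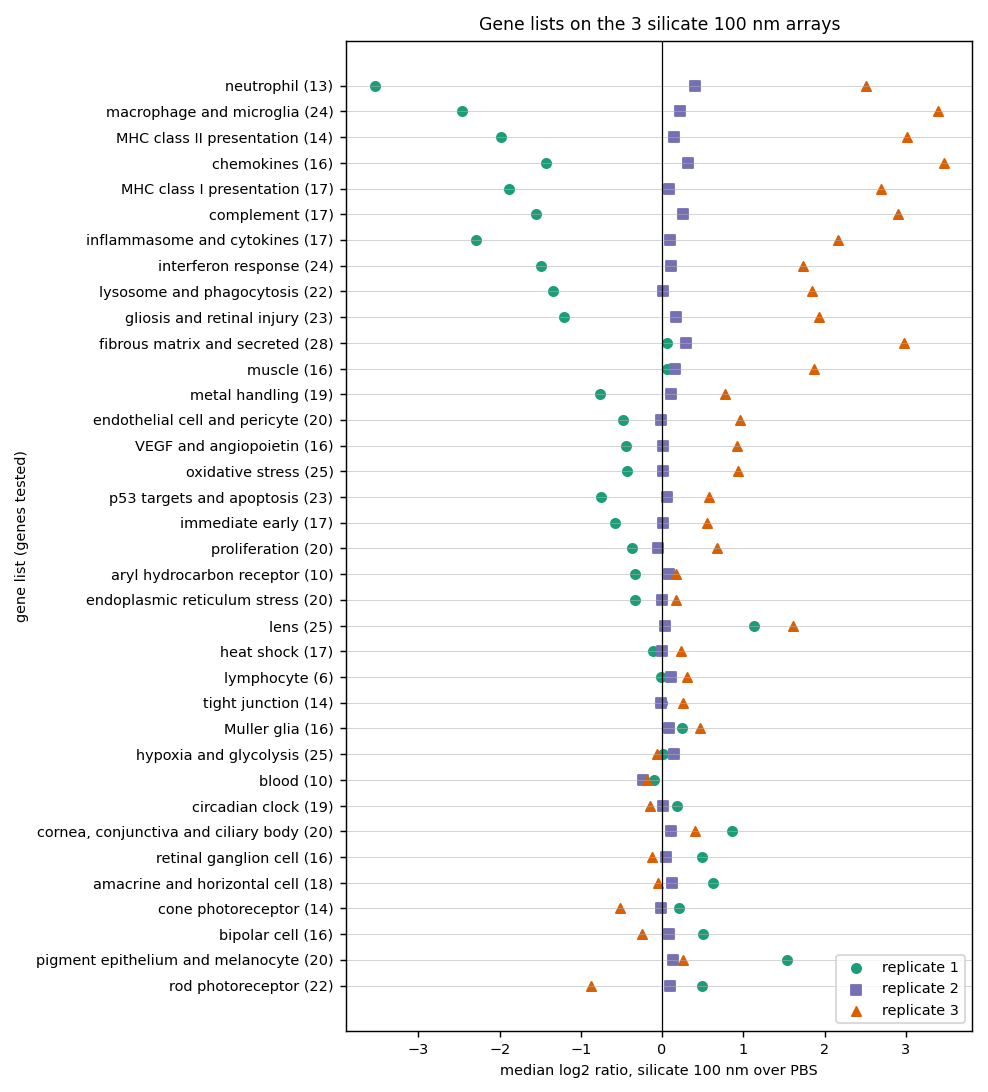
Median log2 ratio of silicate 100 nm over PBS for each of 36 gene lists on arrays 1, 2 and 3, with the number of genes tested in brackets. The macrophage and neutrophil lists lie left of 0 on array 1 and right of 0 on array 3, rods lie right of 0 on array 1 and left of 0 on array 3, and the medians of array 2 lie between -0.24 for blood and 0.41 for neutrophils.

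Genes of gliosis had the order of arrays of the immune genes. Of 23 genes of gliosis and retinal injury, 17 were more than 2-fold below PBS on array 1 and 20 more than 2-fold above on array 3, with a median of -1.21, 0.17 and 1.93, and none passed. Gfap had log2 ratios of -1.08, 0.31 and 1.55, with levels of 9.51, 9.23 and 10.6 in silicate 100 nm and 10.6, 8.92 and 9.1 in PBS. Serpina3n, a reactive glia protease inhibitor gene, had -2.33, 0.69 and 3.71, and Lcn2, the lipocalin gene of neutrophils and reactive glia, had -2.23, 1.14 and 2.95. Edn2, the endothelin gene that injured photoreceptors express, had -0.97, -1.67 and 1.35, so it was more than 2-fold below PBS on array 2, where Lcn2 was above it. Muller glia genes had a median of 0.25, 0.087 and 0.47 over 16 genes and none passed. Among them the water channel gene Aqp4 had 0.79, 0.090 and -0.26, the lipoprotein gene Apoe, also of macrophages, -0.48, 0.071 and 2.88, and the filament gene Vim -1.18, -0.046 and 2.14.

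Rod and cone medians had the opposite signs on arrays 1 and 3, and were smaller. Rod genes had a median of 0.49, 0.092 and -0.87 over 22 genes, with 8 more than 2-fold below PBS on array 3, 0 genes above 0 on all 3 arrays and none past the threshold. Gnat1 had log2 ratios of 0.69, 0.31 and -0.91 and the rod phosphodiesterase gene Pde6b had 0.42, -0.23 and -1.18. Median levels of the rod list were 16.5, 16.5 and 15.7 in silicate 100 nm, against 16.1, 16.7 and 16.8 in PBS, so the silicate tube of array 3 and the PBS tube of array 1 were the low ones. Over the 3 arrays the rod median was -0.108, and 0.12 when arrays were centred on the median in place of loess. Medians were 0.20, -0.018 and -0.52 for 14 cone genes, 0.51, 0.088 and -0.24 for 16 bipolar cell genes, 0.62, 0.12 and -0.048 for 18 amacrine and horizontal cell genes and 0.49, 0.048 and -0.13 for 16 ganglion cell genes. None of these passed. The cone arrestin gene Arr3 had log2 ratios of -0.031, -0.49 and -0.99, all below 0, while a further probe read 0.064, -0.33 and -0.99. The values were 0.92, 0.069 and -0.048 for Gad1, the GABA synthesis gene of amacrine cells, and 0.54, 0.14 and -0.50 for Nefl, a neurofilament gene of ganglion cells. The tubes with low rod medians were the tubes with high macrophage and microglia medians, and the part of one in the other was not tested.

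Genes of tissue next to the retina also differed between the tubes. Lens genes had a median of 1.13, 0.041 and 1.61 over 25 genes, with 14 more than 2-fold above PBS on array 1 and 18 on array 3, 11 above 0 on all 3 arrays and none past the threshold. Cryaa, the alpha-crystallin gene of lens, had levels of 18.1, 17.6 and 18.3 in silicate 100 nm, against 14.1, 17.3 and 16.2 in PBS, and log2 ratios of 4.02, 0.26 and 2.02. Crygs had log2 ratios of 3.45, 0.26 and 1.78 and Mip, the water channel gene of lens fibres, 3.38, -1.7 and 2.06. Gamma-crystallin genes of fibres kept another order, with -0.42, 0.87 and 3.37 for Cryge and -0.70, 0.86 and 3.54 for Crygf, which were above PBS on arrays 2 and 3 and below it on array 1. Cryaa was bright in every tube, and its PBS tube on array 1 was the lowest of the 6.

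Pigment epithelium and melanocyte genes had a median of 1.54, 0.13 and 0.26 over 20 genes, 13 of them more than 2-fold above PBS on array 1. Dct and Tyrp1 of melanin synthesis had log2 ratios of 3.59, 0.57 and 1.58 and 2.73, 0.71 and 1.75, and Rpe65, the isomerase gene of the visual cycle, had 1.89, 0.048 and -0.37. Dct and Tyrp1 were above PBS on all 3 arrays, Rpe65 on arrays 1 and 2. Cornea, conjunctiva and ciliary body genes had a median of 0.86, 0.11 and 0.41 over 20 genes. Optc, a proteoglycan gene of ciliary body and vitreous, had levels of 9.7, 8.29 and 11.8 in silicate 100 nm, against 7.47, 7.87 and 7.79 in PBS, with log2 ratios of 2.23, 0.41 and 4.0, and it did not pass at a mean of 2.22 ± 1.79 (SD, n = 3, adjusted p = 0.158). Krt12, the keratin gene of corneal epithelium, had 1.23, 1.47 and -4.77, with the sign turned on array 3. The basal keratin gene Krt15 had 1.18, 1.18 and 1.35, more than 2-fold above PBS on each array, and an adjusted p of 0.65 in the fit, whose spread is shared by all 12 arrays.

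Fibrous matrix and secreted genes had a median of 0.057, 0.30 and 2.98 over 28 genes, 25 of them more than 2-fold above PBS on array 3. The collagen gene Col1a1 had log2 ratios of -1.33, 0.54 and 5.85, the proteoglycan gene Dcn -2.13, 2.08 and 4.49 and Penk, the enkephalin precursor gene, 2.48, 0.30 and 2.34. Col1a1 and Dcn were below PBS on array 1, and Penk was above it on all 3. Muscle genes had a median of 0.055, 0.16 and 1.87 over 16 genes, with 0.22, 0.28 and 4.44 for the fast myosin light chain gene Myl1, and 10 of the 16 were above 2-fold on array 3 and 0 on arrays 1 and 2. Blood genes had a median of -0.11, -0.24 and -0.19 over 10 genes. The globin gene Hba-a1 had -0.012, -0.73 and -1.67, the erythroid heme synthesis gene Alas2 -0.24, -0.82 and -1.43 and the red cell anion exchanger gene Slc4a1 -0.32, -0.30 and -0.25, all below 0 on all 3 arrays. Alas2 passed with the slide as a fixed block (adjusted p = 0.0461, against 0.508 without it). None of the members of these 6 lists of neighbouring tissue and blood passed. Whether material of these tissues in a pool takes part in other differences was not tested.

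Of 19 metal handling genes none passed (median -0.77, 0.10 and 0.78). The metallothionein gene Mt2 had log2 ratios of -2.19, 0.26 and 2.19 and the ferritin gene Fth1 had -2.45, 0.063 and 2.71, the order of arrays seen for immune genes. Among 25 oxidative stress genes, G6pdx, which supplies NADPH, fell and none rose (median -0.43, 0.016 and 0.93). The call of G6pdx was lost with the slide random (adjusted p = 0.129). Hmox1, the heme oxygenase gene, had -2.96, -0.024 and 1.05, and the selenium enzyme gene Gpx3 had 1.47, 0.61 and 3.26, above PBS on all 3 arrays without passing. Endoplasmic reticulum stress genes had a median of -0.34, -0.0024 and 0.17 over 20 genes, 0 of them past 2-fold on any array, with -0.32, 0.035 and 0.45 for the chaperone gene Hspa5 and -0.34, -0.060 and -0.012 for Ddit3. Genes of p53 targets and apoptosis had a median of -0.75, 0.060 and 0.58 over 23 genes, with -2.96, 0.19 and 2.55 for the cell cycle inhibitor gene Cdkn1a (-0.32, 0.32 and 0.75 at a further probe) and -0.94, -0.36 and 0.28 for Bax. None of the endoplasmic reticulum and p53 genes passed.

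Vessel, barrier and oxygen genes did not pass either in the fit without the block. Endothelial cell and pericyte genes had a median of -0.49, -0.010 and 0.96 over 20 genes, with -2.05, -0.038 and 2.05 for the junction gene Cdh5. VEGF and angiopoietin genes had a median of -0.45, 0.0049 and 0.92 over 16 genes. Vegfa, the main growth factor gene of vessels, had log2 ratios of 0.12, 0.33 and 0.46, all above 0 (mean 0.30 ± 0.18 SD, adjusted p = 0.115), and a further, dimmer probe read -0.95, 0.21 and 0.61. With the slide as a fixed block Vegfa passed (adjusted p = 0.0261), and with the slide random it did not (0.146). Angpt2, which loosens vessels, had -0.98, 0.28 and 1.49. Tight junction genes had a median of -0.0045, -0.010 and 0.26 over 14 genes, with 0.26, 0.21 and -0.037 for Tjp1, -0.028, -0.22 and -0.030 for Ocln and -0.66, -0.28 and 0.25 for Cldn5 of endothelium. Hypoxia and glycolysis genes had a median of 0.015, 0.15 and -0.059 over 25 genes, with -0.17, -0.35 and -0.025 for Hif1a, 0.11, 0.32 and -0.13 for the lactate dehydrogenase gene Ldha and -3.91, 0.39 and 1.98 for the oxygen sensor gene Egln3. Egln3 was the 1 gene of the list past 2-fold on array 1.

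Clock genes had a median of 0.18, 0.011 and -0.15 over 19 genes, none past 2-fold on any array and none past the threshold, with -0.047, 0.050 and -0.11 for Per1 and 0.23, -0.34 and -0.66 for Dbp. Immediate early genes, which report recent activity or stress, had a median of -0.58, 0.017 and 0.55 over 17 genes and none passed. Fos had log2 ratios of -0.69, 0.89 and 2.15 and Egr1 -0.52, 1.66 and 2.48, so both were above PBS on arrays 2 and 3 and below it on array 1. Proliferation genes had a median of -0.37, -0.056 and 0.67 over 20 genes, with -1.44, -0.30 and 2.9 for Mki67, while Dlgap5 rose and Ect2 fell, as given below.

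On array 2, where few genes were far from 0, genes far from PBS were chosen after their values were seen and none of them passed. Besides S100a9 and S100a8, high log2 ratios there included 2.28 for Stfa1, a cystatin gene of neutrophils, 2.24 and 1.61 for the acute-phase genes Saa2 and Saa3, 2.25 for the glycoprotein hormone gene Gpha2, 1.5 for the protease inhibitor gene Slpi and 1.49 for the myeloid receptor gene Lilrb4a, whose further probe read 0.11 there. On arrays 1 and 3, Stfa1 read -0.021 and -2.33, Saa2 read -0.85 and 1.62, Saa3 read -4.38 and 5.18, Slpi read -4.68 and 5.0, and Lilrb4a read -4.78 and 5.49. Saa3, Slpi and Lilrb4a, at the probes given, thus kept the order of S100a8, and Stfa1 did not. At the low end of array 2 stood Ecel1, a protease gene of injured neurons, at -1.96, Mip at -1.7 and Edn2 at -1.67, with 1.97 and 1.61 for Ecel1 on arrays 1 and 3.

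In limma over the 12 arrays, 193 genes rose (0.832%) and 31 fell (0.134%) with silicate 100 nm at an adjusted p under 0.05, 224 of 23203 in all (0.965%), and 2510 genes had an unadjusted p under 0.05. With the slide as a fixed block, 660 rose (2.84%) and 275 fell (1.19%), 935 in all (4.03%). With the slide as a random effect, 171 rose (0.737%) and 17 fell (0.0733%), 188 in all (0.81%). In a fit of the 3 arrays alone 0 passed, with 1150 at an unadjusted p under 0.05. Without slide 1, 37 rose and 1 fell, without slide 2, 5 rose and 0 fell, and without slide 3, 33 rose and 0 fell. Each slide held 1 silicate 100 nm array, so the values by array are also those within a slide. Of the 628 list genes tested, 6 passed (0.955%), a share near that of all genes. With the slide as a fixed block 21 of the 628 passed (3.34%, against 4.03% of all genes), 14 higher and 7 lower, and with the slide random 1 did (0.159%). The 15 list genes gained with the fixed block were, besides Siglech, Cxcl9, Vegfa and Alas2, Tfap2a, Prox1 and Sst of the amacrine list, Gap43, Rgs5, Ankrd37, Ttr, Slc16a8, Col6a1, Bub1b and Cyp1a2, named after their values were seen. Of these, Prox1, Sst and Ttr had both signs over the 3 arrays, with 2.17, 0.12 and -0.28 for Ttr, and the others kept 1 sign. Of the 33 genes above 2-fold on all 3 arrays, among 23203, 32 passed, a count drawn from the same values as the test. The median SD over the 3 arrays of all genes that passed was 0.146 for rises and 0.102 for falls. It was 0.194 over all genes tested, and the test itself favours a low SD. Medians of the 193 rises were 0.728, 0.788 and 0.669 on arrays 1, 2 and 3. Their medians in the other groups were 0.748 for silicate 20 nm, 0.703 for gold 100 nm and 0.719 for gold 20 nm, all against PBS, and 191 of the 193 were above 0 in each of the other 3 groups too, against 10808 of all 23203 genes with the sign of silicate 100 nm in each of them. Silicate 100 nm was in Cy5 on every array, as was every other particle, so a dye effect of a probe and an effect common to all particles cannot be told apart. By the stated design the groups also shared the 3 PBS tubes, so their agreement is not independent.

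Many rises sat at an end of the signal range. Of the 193, 108 had a silicate level under 9 and 76 were not well above background in PBS on any array, while 34 had a level over 17. Of all 23203 genes, 9877 had a silicate level under 9, 438 were not well above background in PBS and 112 had a level over 17. A level under 9 was thus common among all genes too. Olfr1382, an odorant receptor gene with silicate levels a little over 9, had 9.2, 9.49 and 9.36 in silicate 100 nm. In PBS its levels were 6.5, 6.51 and 6.39, where it was not well above background. The groups did not overlap. It rose at least 7.37-fold, against the higher of its own PBS level and the lowest level well above background on the array, with log2 ratios of 2.7, 2.99 and 2.96 (adjusted p = 6.17e-05). AY074887 rose by 2.1 ± 0.050 (SD, n = 3) on the log2 scale (adjusted p = 1.61e-05), with ratios of 2.06, 2.16 and 2.07. Further probes of Olfr1382 and AY074887 read -0.0094 and 0.053, so the probes of these genes disagree. D130043K22Rik rose by 1.9 ± 0.081 (SD, n = 3, adjusted p = 0.00348) and Prokr1, a prokineticin receptor gene, by 1.83 ± 0.48 (SD, n = 3, adjusted p = 0.00789).

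Sntn, a gene of the ciliary tip, had log2 ratios of 1.43, 1.91 and 2.0 and rose at least 2.63-fold. Dlgap5, a gene of the mitotic spindle, had 1.73, 1.68 and 1.73 and rose at least 3.07-fold (adjusted p = 0.000288), with 0.23 at a further probe. The desmosome gene Dsc3 rose at least 2.39-fold, Tmigd1 at least 2.16-fold, the lymphocyte recombinase gene Rag1 at least 2.34-fold, Olfr485 at least 2.64-fold, Chodl at least 2.56-fold and Smok2b at least 2.54-fold, with adjusted p of 0.000371 to 0.0228. None of these 8 genes was well above background in PBS on any array. The filter kept a probe well above background in either channel, so their silicate channel alone could let them in. With both channels required, 36 genes rose and 1 fell in all, and with no filter on dim probes 179 rose and 33 fell. Serpina6, the corticosteroid-binding globulin gene, had log2 ratios of 2.31 and 2.38 on arrays 1 and 3, its spot on array 2 being an outlier, and rose at least 4.62-fold (adjusted p = 1.61e-05, n = 2). Olfr1040, measured on arrays 2 and 3, rose at least 5.31-fold (adjusted p = 0.00347, n = 2).

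The 34 bright rises had a median log2 ratio of 0.943, with 0.967, 1.17 and 0.653 on arrays 1, 2 and 3 and 0.959, 0.987 and 0.764 in silicate 20 nm, gold 100 nm and gold 20 nm. For comparison, all 112 genes with a level over 17, passed or not, had a median of 0.462, with 0.647, 0.599 and 0.295 by array. In silicate 20 nm, gold 100 nm and gold 20 nm the medians of these 112 were 0.605, 0.548 and 0.467. The bright end as a whole thus lay above 0, while the median over all genes was 0.00718. The following 5 of the 34 rises were chosen after their values were seen. Slc10a1, a bile acid transporter gene of liver, had levels of 18.5, 18.5 and 18.3 in silicate 100 nm and 17.1, 16.9 and 17.4 in PBS, and log2 ratios of 1.34, 1.57 and 0.92. Kctd14 had log2 ratios of 1.28, 1.47 and 0.91, the clotting factor gene F10 1.2, 1.4 and 0.79, Synrg 1.04, 1.39 and 0.77 and the transcription factor gene Elk1 1.06, 1.31 and 0.69. All 5 were above PBS on every array at these probes, which were bright in both channels. Further probes averaged 0.24 and 0.17 for Kctd14, -0.034 for Synrg and 0.064 for Elk1, so the probes of these genes disagree. Of the 34 genes, 16 had further probes, 22 in all, with a median log2 ratio of 0.0676 and a median level of 9.48. A further probe of F10 read -4.21, 0.43 and 4.29, the order of the macrophage genes, while its bright probe did not follow them. Among the other 159 rises, 21 genes had 27 further probes, with a median of 0.0532, against 0.46 at the probes tested.

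**Figure D4:**
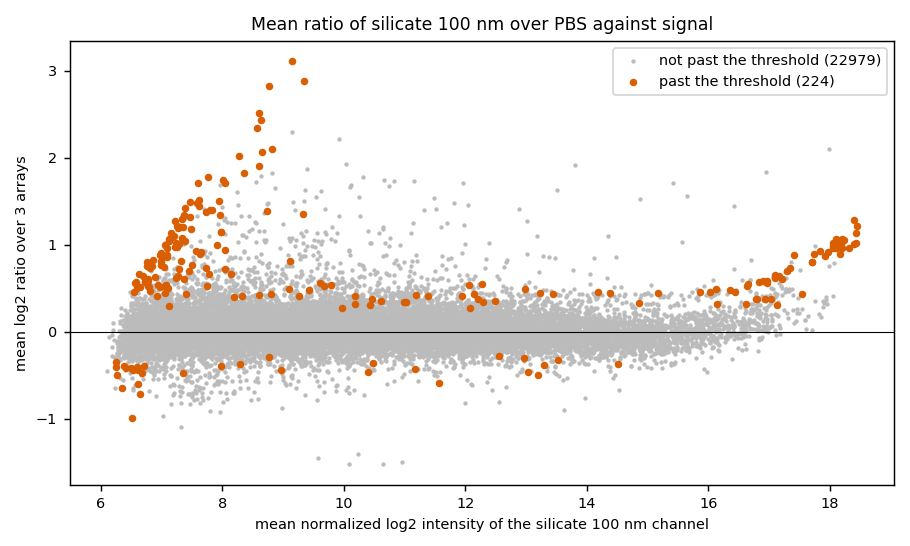
Mean log2 ratio of silicate 100 nm over PBS against the mean level of the silicate 100 nm channel, for all 23203 genes, with the 224 that passed in colour. The rises lie in a dim clump at the left (108 with a level under 9) and a bright one at the right (34 with a level over 17). Of all 23203 genes, 9877 had a level under 9 and 112 a level over 17.

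The falls were small, with a median of -0.418 over the 31 genes. Their medians in the other groups were -0.322 for silicate 20 nm, -0.334 for gold 100 nm and -0.278 for gold 20 nm. Of the 31, 29 were below 0 in each of these groups too. For comparison, 10808 of all 23203 genes had the sign of silicate 100 nm in each of them. Ahrr, the repressor that limits the aryl hydrocarbon receptor, had levels of 11.9, 11.7 and 11.1 in silicate 100 nm and 12.2, 12.1 and 12.1 in PBS, with log2 ratios of -0.36, -0.46 and -0.95. Every silicate 100 nm tube was below every PBS tube. It fell by 0.59 ± 0.32 on the log2 scale (SD, n = 3, adjusted p = 0.043, or 0.121 when the slide was a random effect), and a further, dimmer probe read -0.82, 0.019 and -0.52. Mean log2 ratios of Ahrr were -0.87 with silicate 20 nm, -0.31 with gold 100 nm and -0.16 with gold 20 nm. Ahrr is itself a target of that receptor in mouse and human cells, through sites with the core GCGTG. The 250 bases before its start, chr13:74292332-74292581 on the minus strand of GRCm38.p6 from RefSeq, are printed to show these letters, searched on both strands and set in capitals. There are 3 matches, which start 107 to 27 bases before the gene start, and 28.2% of the 27025 promoter windows hold at least 1.
Ahrr: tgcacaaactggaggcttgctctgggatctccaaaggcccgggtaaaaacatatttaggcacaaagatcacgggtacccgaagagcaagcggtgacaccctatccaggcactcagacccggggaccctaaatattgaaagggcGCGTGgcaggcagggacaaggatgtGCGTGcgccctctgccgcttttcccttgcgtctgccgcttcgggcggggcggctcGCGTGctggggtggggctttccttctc

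The other 9 genes of the aryl hydrocarbon receptor list did not pass (median -0.34, 0.080 and 0.18 over 10 genes). The receptor gene Ahr had log2 ratios of -0.32, -0.14 and -0.32, all below 0, and its partner gene Arnt had -0.14, 0.085 and -0.040. Of the targets, Cyp1b1 had -0.58, 0.21 and 1.69, Tiparp -1.02, 0.22 and 0.86 and Nqo1 -0.45, -0.027 and 0.83, lowest on array 1 and highest on array 3, an order that Ahrr did not share. Cyp1a1 was not analysed here.

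Heat shock genes had a median of -0.12, -0.0024 and 0.23 over 17 genes, with 1 rise and 1 fall. Hspb6, a small heat shock protein gene of muscle, had levels of 13.4, 13.2 and 13.1 in silicate 100 nm and 13.8, 13.5 and 13.8 in PBS, and log2 ratios of -0.39, -0.37 and -0.74. It was below PBS in each tube and fell by 0.50 ± 0.21 (SD, n = 3, adjusted p = 0.0344, or 0.0653 with slide random). Hspa8, the constitutive chaperone gene, had log2 ratios of 0.34, 0.32 and 0.26 and rose by 0.30 ± 0.040 (SD, n = 3, adjusted p = 0.0444, or 0.112 with slide random), while further probes averaged 0.032 and -0.099. At the probe tested its silicate levels were 17.2, 17.1 and 17.1. Its ratio there lay under the median of 0.462 of all 112 genes with a level over 17. The inducible gene Hspa1a had -0.18, -0.28 and -0.63, all below 0 and not past the threshold, Dnajb1 had -0.20, -0.075 and -0.073, and the factor gene Hsf1 had -0.065, -0.070 and -0.055. Of the other list members that passed, G6pdx had log2 ratios of -0.40, -0.21 and -0.29 (adjusted p = 0.048, or 0.129 with slide random) and Ect2, a gene of cell division, had -0.33, -0.29 and -0.56 (adjusted p = 0.0446, or 0.134 with slide random).

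Among genes with a symbol, the largest fall was that of 4930571K23Rik, at least 1.49-fold, with log2 ratios of -0.68, -0.54 and -0.71 (adjusted p = 0.0096), and it was not well above background with silicate 100 nm. Lrrc30 fell at least 1.29-fold and Olfr220 at least 1.35-fold, both dim in the same way, with adjusted p of 0.0202 and 0.0195. With slide random these were 0.0716 and 0.0655. Hook3, a gene that links cargo to dynein, had levels of 13.1, 13.2 and 12.8 in silicate 100 nm and 13.4, 13.6 and 13.5 in PBS, and log2 ratios of -0.28, -0.42 and -0.66. It fell by 0.46 ± 0.19 (SD, n = 3, adjusted p = 0.0273), and a further probe averaged -0.24. Arsg, a lysosomal sulfatase gene, had log2 ratios of -0.53, -0.26 and -0.50 and fell by 0.43 ± 0.15 (adjusted p = 0.0218). Both were below PBS on each array, and silicate and PBS levels did not overlap for either gene.

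**Figure D5:**
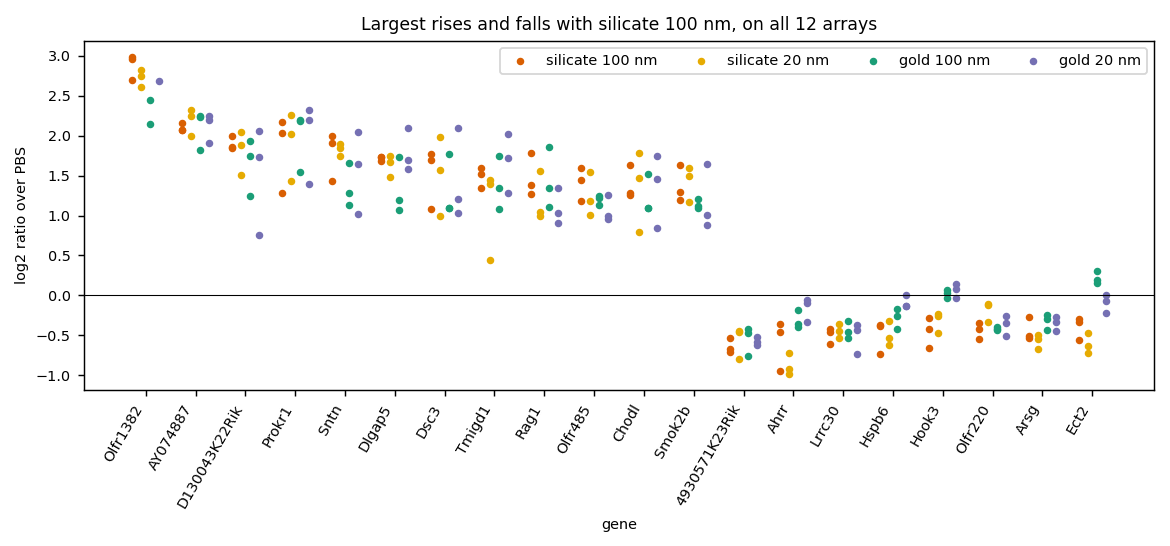
Log2 ratios over PBS of the 12 largest rises and the 8 largest falls, among genes with a symbol and all 3 arrays, with silicate 100 nm, for each of the 3 arrays of silicate 100 nm, silicate 20 nm, gold 100 nm and gold 20 nm. Hook3 lies near or above 0 in both gold groups and Ect2 above 0 in gold 100 nm.

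Silicate 100 nm was then set against each other particle group, where a dye effect of a probe common to all arrays cancels, in differences of log2 ratios. Which PBS tube was on which array is not given in the sources used here. The median SD of PBS levels was 0.0488 to 0.0873 within slides and 0.164 between slides, and whether arrays of a slide share a PBS tube was not tested further. In limma, 0 of 23203 genes (0%) passed for silicate 100 nm minus silicate 20 nm, minus gold 100 nm, minus gold 20 nm or minus the mean of the other 3 groups. At an unadjusted p under 0.05 there were 216, 413, 450 and 293 genes in that order. With the replicate block, which pairs arrays by slide, the counts at an unadjusted p were 637, 1444, 1470 and 939, and the smallest adjusted p of the 4 differences was 0.542. S100a8 had a mean of 0.98 in silicate 100 nm against 1.19 in silicate 20 nm, -2.72 in gold 100 nm and -2.71 in gold 20 nm. Hook3 averaged -0.46 in silicate 100 nm, -0.32 in silicate 20 nm, 0.020 in gold 100 nm and 0.066 in gold 20 nm. The difference from gold 100 nm was -0.48 for Hook3 (adjusted p = 1, and 0.675 with the replicate block).

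By lists, the array 3 median of macrophage and microglia genes was 3.4 with silicate 100 nm, against 3.11 with silicate 20 nm, -0.59 with gold 100 nm and -0.34 with gold 20 nm. For rods it was -0.87 with silicate 100 nm, -0.87 with silicate 20 nm, 0.18 with gold 100 nm and 0.24 with gold 20 nm. For fibrous matrix genes it was 2.98, 1.78, 0.12 and 0.048 in the same order of groups. The immune, rod and matrix medians of slide 3 thus lay apart from the gold ones in both silicate tubes, while on slide 1 all 4 groups were below PBS, at -2.46, -1.77, -2.8 and -2.42 for macrophage and microglia genes. On slide 2 the order was another, with macrophage and microglia medians of 0.23 for silicate 100 nm, 0.38 for silicate 20 nm, 0.48 for gold 100 nm and 0.96 for gold 20 nm. Matrix medians there were 0.30, 0.69, 0.92 and 0.84, groups in that order. The lens medians of silicate 100 nm, given above, were above 0 on all 3 arrays, against -0.20, -0.18 and 0.85 for silicate 20 nm, 1.38, 0.15 and -1.81 for gold 100 nm and -0.72, -1.72 and -1.64 for gold 20 nm. The list differences were not tested.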

How the data were processed

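Total RNA was measured on 12 Agilent 2-colour arrays, each with a particle pool in Cy5 and a PBS pool in Cy3, with 43020 non-control and 1377 control spots. Per the file headers, the deposited files are scanner output of Agilent Feature Extraction 11.0.1.1, while the submitters' processing notes give 9.3.2.1. The median signals used are deposited intensity values on a linear scale. The deposited value table of the series holds ratios that the authors made, which fit log2 of Cy5 over Cy3 (slopes of 3.31 to 3.32 against the log10 ratios of the deposited scanner files, column medians of 0.0744, 0.0477 and 0.114), with their centring unknown. It was an alternative.

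Background was corrected with limma 3.58.1 in R 4.3.3 (normexp, offset 50) and each array normalized by loess with control spots at weight 0. Outlier spots were left out (205, 257 and 212 on the 3 arrays), and no spot was saturated. Spots of a probe were averaged, 28425 of 39429 probes passed the filter on dim signals, and the brightest probe stood for a gene. That filter asked for a signal well above background in either channel, on all 3 arrays of at least 1 particle group. Gene names came from RefSeq (GRCm38.p6), used for names, with 20395 accessions named. Then lmFit and eBayes were fitted over 12 arrays with 4 group means, and p-values were Benjamini-Hochberg adjusted over all genes. On simulated data for silicate 100 nm against PBS over 23203 genes, 77% of changes of 1 and 90% of changes of 2 on the log2 scale were recovered, with 9 false calls. The simulated arrays were independent, with no correlation within a slide and no dye effect. These shares therefore need not hold for the real arrays.

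Headers show that same-numbered arrays lay on 1 slide, and deviations of same-slide arrays correlated at 0.921 to 0.934, 0.081 to 0.462 and 0.553 to 0.919 on slides 1, 2 and 3. With arrays of other slides the ranges were -0.876 to -0.108, -0.182 to 0.187 and -0.911 to 0.821. Deviations were taken from the mean of each group's 3 arrays, so within a group those of a gene sum to 0. This centring shapes the values between slides. Array 3 correlated at 0.821 and 0.781 with the gold arrays of slide 2 and at 0.622 and 0.553 with those of its own slide. After the centring, that order is no measure of likeness between the tubes. By the headers the replicate number marks the slide, and the fit without the slide is the one reported. That fit treats arrays of a slide as independent and leaves the differences between slides in its spread. Silicate 100 nm always took place 4 on its slide, and this place cannot be told apart from the particle. The number of arrays limits the precision.

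Named genes with a symbol are the 12 largest rises and 8 largest falls with 1 sign on 3 arrays, the members of each list that passed (up to 4) and the first 3 of each list, the 10 with the largest SD and the 10 with the largest mean. A named gene that is withheld is not reported here. Other list members, array 2 genes, bright genes and promoters were chosen after their values were seen. The 36 lists (687 genes, 628 tested), the members and the tests were chosen with earlier results of these data known. Alternatives were the processed signals, median centring, other filters, the value table, the slide as a block and arrays left out.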

Additional observations from a re-analysis of the deposited data

Results flagged for a closer look

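A few results had every silicate 100 nm array on one side of 0 and every array of another particle group on the other side, all against PBS. Against gold 100 nm, Ect2 averaged -0.394 with silicate 100 nm and 0.219 with gold 100 nm, and Cd3e averaged 0.0453 with silicate 100 nm and -0.0408 with gold 100 nm. Against gold 20 nm, Cryaa averaged 2.1 with silicate 100 nm and -1.41 with gold 20 nm, Crygs 1.83 and -1.49, and Krt14 0.531 and -0.109, in the same order of groups. A further probe of Cryaa read 3.43, -0.3 and 1.6 on the silicate 100 nm arrays, so the single side did not hold there. For these 5 genes the limma test of the difference gave an adjusted p of 1. The median of the lens list was 1.03 with silicate 100 nm and -1.38 with gold 20 nm, and that difference was not tested.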

How the results depend on the processing

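The named genes that passed had a single sign on every silicate 100 nm array measured. The largest rises and falls were chosen for this. Leaving arrays out could thus not turn the sign of their means, so those alternatives are no test of it. None of the 24 named genes that passed changed sign in any of 320 alternative values. Values with no call did: 27 of 36 list medians changed sign in 35 of 252 alternative values, 29 of them with a slide left out, and 77 of 108 named genes that did not pass in 183 of 1503, 166 of them with arrays left out. Of the genes that rose (193) or fell (31), the counts were 444 that rose with median centring, 36 and 1 with probes well above background in both channels, 660 and 275 with the replicate block, 17 that fell with the slide as a random block, and 0 and 0 with the 3 silicate 100 nm arrays alone (1150 at an unadjusted p under 0.05). Leaving out each slide gave 5 to 37 rises and 0 to 1 falls, and leaving out each silicate 100 nm array, chosen after seeing the data, gave 51 to 69 and 1 to 6. The share of rises was 86.2%, 70.6% with the replicate block, 93.5% with median centring and 97.3% with probes above background in both channels. List members that passed numbered 6, against 21 with the replicate block, 1 with the slide random, 1 with processed signals, 0 with probes above background in both channels and 0 to 1 with a slide left out. The blood median was -0.219, against -0.506 with processed signals, -0.143 without a filter and -0.392 with probes above background in both channels, and it lay between -0.343 and -0.209 with a slide left out. The cornea, conjunctiva and ciliary body median was 0.514, and 0.11 to 0.623 with a slide left out. The hypoxia median was 0.256 with median centring, against 0.0424. The differences from the other groups passed for 0 genes under all alternatives run. The cause of these shifts was not tested, except that fewer genes or arrays enter with the stricter filter and with arrays left out. Signal near background limits the dim rises.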
